A study of Mus musculus with 32 samples.

Results

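The genes described here are markers of epidermal Langerhans cells together with genes of the major histocompatibility complex (MHC) class II pathway. They are Cd207, Epcam, Cd74, H2-Aa, H2-Ab1, H2-Eb1, H2-DMa, Ciita, Ltc4s and Csf1r, and they were matched by symbol to the Ensembl identifiers of the count files. All 10 were found among the 55401 identifiers, and all 10 passed the filter of 1 cpm (read counts scaled to a common library size) in 1 or more mice, as did 15546 genes in all. The epidermis came from 32 hairless mice, 8 groups of 4, of a mixed SKH-1/SV129/BL6/J background, aged 10 to 14 weeks, and each sample was 1 mouse. Wild-type (+/+) and PPARD-/- littermates, called KO below as in the labels, lacking the nuclear receptor PPARβ/δ, were used in each sex. In each sex and genotype, 4 mice were taken 24 h after a UV dose of 120 mJ/cm2 to the back, below the dose that reddens skin, and 4 controls were sham-handled without exposure. The labels describe the KO as -/-, and no Cre driver, promoter or cell type is given for the allele. Time after exposure and exposure itself vary together, since there was 1 time point.

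Langerhans cells are the resident antigen-presenting cells of the epidermis. They lie between the keratinocytes, depend on the receptor CSF1R and its keratinocyte-derived ligand IL-34 for their upkeep, and use langerin, the product of Cd207, to take up antigen into Birbeck granules. MHC class II molecules are dimers of an alpha and a beta chain that reach the endosome with the invariant chain (Cd74), exchange its peptide remnant for antigen with the help of H2-DM, and show the peptide to CD4+ T cells. Ciita is the coactivator without which class II genes are hardly transcribed. Langerhans cells that have met a stimulus leave the epidermis for the draining lymph node.

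Between 22919428 and 40653581 reads per mouse fell on genes (median 27600228), and values are given as cpm after TMM scaling unless another scale is named. The labelled tissue was met by its markers, with Krt5, a basal keratin, between 2254 and 7144 cpm in every mouse. Dermal Col1a1 was at most 17.6 cpm in 31 mice and at 185 cpm in the UV-exposed KO female 54F. That mouse also had 220 cpm of the macrophage gene C1qa, where the other mice had at most 13.3 cpm, and 4.58 cpm of the mast cell gene Cpa3, where no other mouse exceeded 0.719 cpm. Results that rest on this mouse are given with and without it. The targeted gene Ppard was at 70.3 to 88.9 cpm in KO controls and 87.3 to 105 cpm in wild-type controls, so reads summed over the whole gene do not show the deleted part and do not check the labels. In bulk epidermis, fewer cells of a type and less RNA per cell cannot be told apart.

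**Figure D1:**
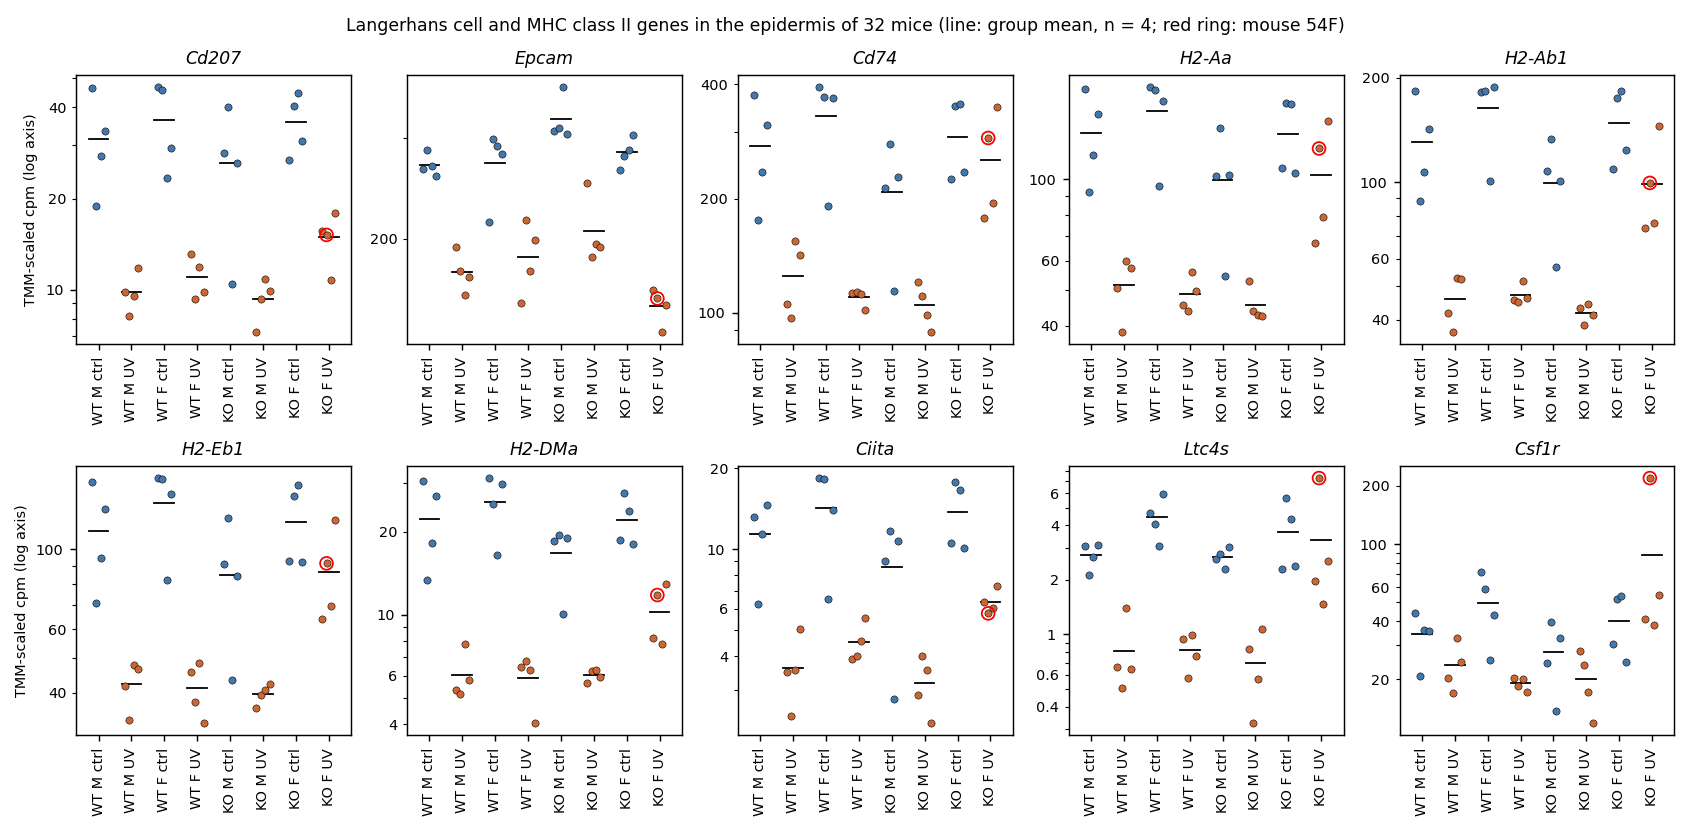
TMM-scaled cpm on a log axis for each of the 10 genes in 32 mice, by genotype (WT, KO), sex (M, F) and exposure (ctrl, UV). Each point is 1 mouse, the line is the mean of 4 mice and the red ring marks mouse 54F, which at 219.5 cpm of Csf1r lies far above the other mice, while for Cd74, H2-Aa, H2-Ab1 and H2-Eb1 all 4 UV-exposed KO females lie above every mouse of the other UV-exposed groups.

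UV in wild-type epidermis lowered all 10 genes. Of all genes tested, 36.5% were lower and 71% were changed in either direction at an adjusted P value under 0.05, so a call by itself sets no gene apart in this comparison. The sizes did differ, as the median log2 fold change of the 10 genes was -1.60 against -0.01 over all genes. In 8 of the 10 genes, all 8 UV-exposed mice were below all 8 controls, which held for 22.1% of all genes. The exceptions were Epcam and Csf1r.

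Cd207, which encodes langerin and defines the cell type, stood at 46.4, 18.9, 27.6 and 33.4 cpm in the 4 wild-type male controls and at 46.8, 45.8, 23.4 and 29.4 cpm in the female controls. After UV it was at 9.85, 8.18, 9.49 and 11.8 cpm in males and at 13.1, 9.32, 11.9 and 9.81 cpm in females. The lowest control was thus above the highest exposed mouse, and the exposed mice were closer to each other than the controls were. The change was -1.70 on the log2 scale (SE 0.21, n = 8 against 8, adjusted P value 4.33e-08), and it was -1.68 in males and -1.72 in females.

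Ltc4s, the leukotriene C4 synthase that is abundant in Langerhans cells, had the steepest fall of the 10 genes at a log2 fold change of -2.09 (SE 0.30, adjusted P value 5.75e-07). It was a low gene, at 2.14 to 5.92 cpm in wild-type controls and 0.509 to 1.41 cpm after UV, with no overlap. Csf1r, the receptor for IL-34 and CSF1 that Langerhans cells share with macrophages, fell less. It lay between 20.9 and 71.9 cpm in wild-type controls (median 39.5) and between 17.1 and 32.6 cpm after UV (median 20.2), and these ranges overlapped. Its log2 fold change was -0.95 (SE 0.31, adjusted P value 0.00813). In males taken alone it was -0.52 (adjusted P value 0.311), and in females -1.38 (adjusted P value 0.0089).

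Epcam, an adhesion molecule of Langerhans cells that is also made by follicular and other epithelial cells, changed least. It was at 214 to 299 cpm in wild-type controls and 154 to 216 cpm after UV, so that only the highest exposed mouse reached the lowest control. The log2 fold change was -0.58, but with an SE of 0.08 it was among the more precisely measured (adjusted P value 1.14e-07).

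The class II chains moved closely together. H2-Ab1, the beta chain of I-A, was at 184, 88.2, 107 and 143 cpm in male and 182, 184, 101 and 188 cpm in female wild-type controls. After UV, the males had 42.0, 37.0, 52.7 and 52.6 cpm and the females 45.7, 45.2, 51.97 and 46.2 cpm. Every exposed mouse was below every control, and the log2 fold change was -1.65 (SE 0.18, adjusted P value 3.67e-09). H2-Aa, the alpha chain of I-A, fell by 1.51 on the log2 scale and H2-Eb1, the beta chain of I-E, fell by 1.56. The entry for the I-E alpha chain, annotated as the pseudogene H2-Ea-ps, did not reach 1 cpm in any mouse and was not tested.

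Cd74, the invariant chain, was the most abundant of the 10 genes per length, at 180 cpm per kb of exon in wild-type controls. It fell from 176 to 394 cpm without UV (median 341) to 97.1 to 155 cpm after UV (median 112), a log2 fold change of -1.37 (SE 0.19). H2-DMa, the alpha chain of the peptide exchange factor H2-DM, fell further, from 13.3 to 31.4 cpm to 4.04 to 7.85 cpm, a log2 fold change of -2.01 (SE 0.18, adjusted P value 1.15e-10). Ciita was at 6.26 to 18.4 cpm in controls and 2.40 to 5.56 cpm after UV, a log2 fold change of -1.66 (SE 0.25). The annotated spans of H2-DMa, H2-Eb1, Cd74, Ciita, Ltc4s and Csf1r overlap those of other genes. Whether exons overlap was not examined, and the sources used here do not state whether counting used strand.

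In wild-type controls the order of levels per kb of exon was Cd74, Epcam (123 cpm per kb), H2-Eb1 (63.5), H2-Ab1 (57.3), H2-Aa (37.8), Cd207 (22.3), Csf1r (7.25), H2-DMa (6.96), Ltc4s (3.54) and Ciita (1.34). For Cd207 the control means were 36.4 ± 11.8 cpm in wild-type females, 35.7 ± 8.29 cpm in KO females, 31.6 ± 11.5 cpm in wild-type males and 26.3 ± 12.2 cpm in KO males (SD, n = 4). The UV-exposed means were 14.9 ± 2.99 cpm in KO females, 11.01 ± 1.76 cpm in wild-type females, 9.82 ± 1.47 cpm in wild-type males and 9.32 ± 1.51 cpm in KO males (SD, n = 4). Neighbouring means in either order differed by less than their SDs, apart from the step between KO and wild-type females after UV.

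Class II promoters share a module that is read by the RFX complex at the X box and by NF-Y at the inverted CCAAT of the Y box, onto which CIITA docks. Since the class II genes moved together, the RefSeq windows from 250 bases before to 50 after the start (GRCm38.p6) were searched on both strands for GCAAC, a core of the X box, and TGATTGG, the Y box, which do not overlap each other. The letters were chosen after the windows had been read. RefSeq windows were matched for 6 of the 10 genes, and those of H2-Ab1, Ciita, Cd74 and Csf1r are not used here. GCAAC was in 35.1% of 32544 windows, TGATTGG in 7.8%, and GCAAC followed on the same strand by TGATTGG within 40 bases in 0.356%. The windows of H2-Aa at chr17:34287774-34288073 (minus strand) and H2-Eb1 at chr17:34305617-34305916 (plus strand) held that pair, with 26 and 25 bases between. H2-DMb1 at chr17:34152941-34153240 (plus strand), the beta chain partner of H2-DMa, had TGATTGG without GCAAC. Ahead of TGATTGG it reads gtaactgatgatgct where H2-Eb1 reads GCAACtgatgatgct, so the exact search does not tell whether H2-DMb1 lacks an X box. The window of Cd207 at chr6:83677808-83678107 (minus strand) had neither motif. These 4 are printed so that the class II pair can be compared with a chaperone and with langerin, 5′ to 3′ with both motifs in capitals.
H2-Aa: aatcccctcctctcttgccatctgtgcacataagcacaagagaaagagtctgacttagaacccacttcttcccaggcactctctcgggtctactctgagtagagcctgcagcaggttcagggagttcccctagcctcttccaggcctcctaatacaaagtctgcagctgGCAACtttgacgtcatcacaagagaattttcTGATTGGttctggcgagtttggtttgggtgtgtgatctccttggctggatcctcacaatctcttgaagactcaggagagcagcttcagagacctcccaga
H2-Eb1: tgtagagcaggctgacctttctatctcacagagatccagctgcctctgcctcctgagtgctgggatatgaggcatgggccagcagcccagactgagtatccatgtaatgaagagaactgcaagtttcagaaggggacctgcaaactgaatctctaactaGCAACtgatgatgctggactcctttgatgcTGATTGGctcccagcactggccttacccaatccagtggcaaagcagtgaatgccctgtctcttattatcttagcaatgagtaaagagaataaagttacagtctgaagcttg
H2-DMb1: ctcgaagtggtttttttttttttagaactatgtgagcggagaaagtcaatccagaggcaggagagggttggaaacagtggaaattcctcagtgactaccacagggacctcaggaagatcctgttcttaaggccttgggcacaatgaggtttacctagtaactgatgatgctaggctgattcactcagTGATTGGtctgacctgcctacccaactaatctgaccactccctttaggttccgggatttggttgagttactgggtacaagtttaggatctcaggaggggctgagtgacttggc
Cd207: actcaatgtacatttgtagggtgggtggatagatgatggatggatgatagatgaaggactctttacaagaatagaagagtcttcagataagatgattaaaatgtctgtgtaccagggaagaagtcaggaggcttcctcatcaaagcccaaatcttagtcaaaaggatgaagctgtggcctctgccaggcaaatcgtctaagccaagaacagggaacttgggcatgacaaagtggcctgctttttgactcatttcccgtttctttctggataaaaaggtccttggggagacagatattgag
Epcam and Ltc4s held neither motif, and of the H2-DMa windows 1 held GCAAC on the other strand and none held TGATTGG. The H2-DMa windows, at chr17:34122582-34122881 and chr17:34125268-34125567, lie inside the annotated gene (34119541 to 34139101), which overlaps Brd2. Other starts of H2-DMa were not searched, so these windows do not tell whether its promoter holds the motifs. After UV in wild-type mice the genes with the pair, H2-Aa and H2-Eb1, had log2 fold changes of -1.51 and -1.56. The genes whose searched windows lacked it, Cd207, Ltc4s, H2-DMa and Epcam, had -1.70, -2.09, -2.01 and -0.58. A match is only a description of the letters in these windows.

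The rest of the class II pathway was read from lists of genes by role. Of 10 tested genes that load or process class II peptides, 6 fell and 1 rose in wild-type mice and 4 fell and 2 rose in KO mice, or 6 and 2 without mouse 54F. Over all genes, 36.5% and 33.5% were lower in wild-type and KO mice, and 71% and 70.8% changed either way. The beta chains of H2-DM fell with H2-DMa, H2-DMb2 by 2.71 and H2-DMb1 by 1.70 on the log2 scale in wild-type mice, and by 1.79 and 1.17 in KO mice. Lgmn, the lysosomal protease legumain that also trims the invariant chain, rose by 1.44 (adjusted P value 4.77e-05) and 2.12 in wild-type and KO mice, or by 1.78 in KO mice without 54F. Ctss, cathepsin S, had a log2 fold change of 0.25 in wild-type mice (adjusted P value 0.506) and rose by 1.35 in KO mice, or by 0.96 without 54F. March1, the ligase that removes class II molecules from the surface of antigen-presenting cells, fell by 1.91 in wild-type mice and had -0.66 in KO mice (adjusted P value 0.121), where it fell by 1.18 without 54F.

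Of 17 tested genes of the RFX and NF-Y complexes and of interferon-gamma signalling, 5 fell and 5 rose in wild-type mice, and 5 fell and 6 rose in KO mice, with medians of -0.10 and 0.02, beside the 71% and 70.8% of all genes that changed. In wild-type mice Rfx5 fell by 0.40 and Jak1 by 0.62 on the log2 scale. Socs1, an inhibitor of cytokine signalling, rose by 2.42 and Nfya by 0.85. Irf4 rose by 0.75 in wild-type and by 1.74 in KO mice, in which mouse 54F had 21.8 cpm and the other exposed mice 3.36 to 10.4 cpm, and it rose by 1.49 without that mouse. Irf8 had log2 fold changes of -0.14 in wild-type mice (adjusted P value 0.614) and 1.03 in KO mice (adjusted P value 0.000421), or 0.82 without 54F.

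In KO epidermis UV lowered 9 of the 10 genes, where 33.5% of all genes were lower and 70.8% changed either way. The median log2 fold change of the 10 genes was -0.85 against 0.09 over all genes. Only for Epcam were all 8 exposed mice below all 8 controls, which held for 16.5% of all genes, and its log2 fold change was -0.77 (SE 0.08). In each of the other 9 genes the lowest control was the KO male 52M and the highest exposed mouse was a female, 54F for Ltc4s and Csf1r and 74F for the rest.

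**Figure D2:**
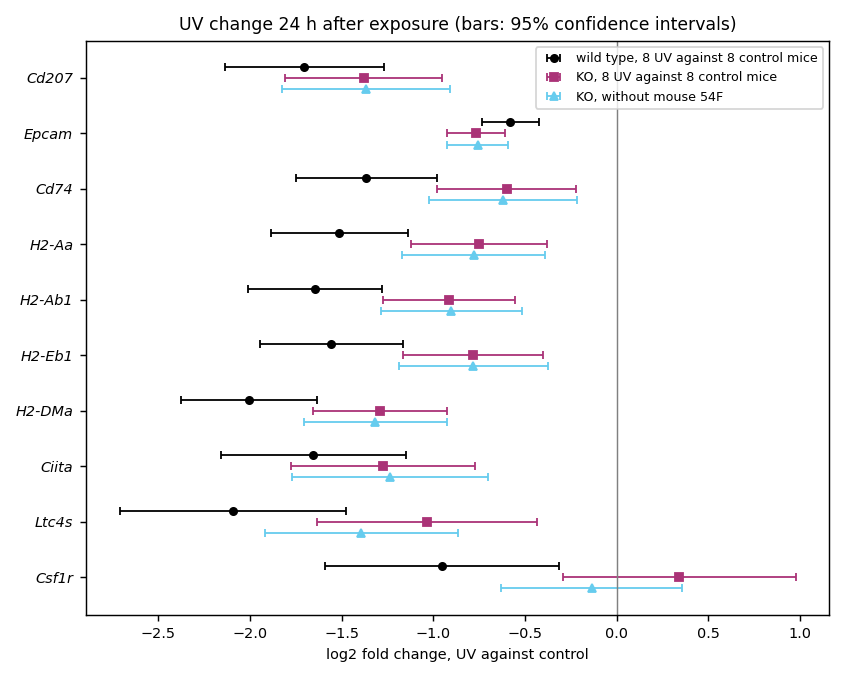
Log2 fold changes of the 10 genes 24 h after UV, with 95% confidence intervals, in wild-type mice, in KO mice and in KO mice without 54F. All wild-type estimates lie below 0, and the KO estimates lie closer to 0 than the wild-type ones for every gene except Epcam, with Csf1r changing sign without 54F.

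Cd207 fell by 1.38 on the log2 scale in KO mice (SE 0.21, adjusted P value 1.34e-06), from 28.3, 40.2, 10.5 and 26.2 cpm in male and 26.7, 40.5, 44.6 and 30.9 cpm in female controls. Exposed KO males had 7.25, 9.31, 10.8 and 9.93 cpm and exposed KO females 15.7, 15.2, 10.8 and 18.0 cpm. In females every exposed mouse was below every control, and in males the control 52M lay within the exposed range. The class II genes fell by less than 1 on the log2 scale, with -0.60 for Cd74 (adjusted P value 0.00533), -0.75 for H2-Aa, -0.91 for H2-Ab1 and -0.78 for H2-Eb1, and H2-DMa and Ciita fell by 1.29 and 1.28.

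Csf1r stood apart in KO mice, with a log2 fold change of 0.34 (95% confidence interval -0.29 to 0.98, adjusted P value 0.333). Exposed KO females had 41.2, 219.5, 38.3 and 54.4 cpm against 30.4, 51.9, 54.2 and 24.6 cpm in their controls, and exposed KO males had 28.0, 23.8, 17.1 and 11.9 cpm against 24.2, 39.7, 13.7 and 32.6 cpm. The value of 219.5 cpm was that of mouse 54F, and without it the log2 fold change was -0.14 (adjusted P value 0.624). Ltc4s fell by 1.04 in KO mice with 54F, which had 7.27 cpm, and by 1.39 without it.

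The genotypes were next compared in each state, to ask whether the receptor alters the level of these genes. Without UV, none of the 10 genes was called, where 0.206% of all genes were, and 1 of the 10, Epcam, had an unadjusted P value under 0.05 in edgeR's test, where 8.52% of all genes did. The estimates were small, between -0.32 (H2-DMa and H2-Aa) and 0.16 (Epcam) on the log2 scale. For Cd207 the difference was -0.14 with a 95% confidence interval of -0.56 to 0.27, and for H2-Ab1 -0.27 with an interval of -0.62 to 0.09, so differences of that size were not separable at this number of mice.

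After UV, none of the 10 was called over both sexes, where 3.31% of all genes were, although 7 had an unadjusted P value under 0.05, where 20.1% of all genes did, and DESeq2 called 1, Csf1r. The estimates were higher in KO than in wild-type mice for 9 of the 10 genes, with a median of 0.45. Without mouse 54F, the 95% confidence intervals of H2-DMa (-0.04 to 0.73), Ltc4s (-0.008 to 1.04) and Csf1r (-0.01 to 0.98) included 0. Those of Cd74, H2-Aa, H2-Ab1 and H2-Eb1 stayed above 0. The difference between the UV changes of the genotypes, tested as an interaction, was called for none of the 10, where 0.765% of all genes were called, again with 7 at an unadjusted P value under 0.05, where 19.6% of all genes were, and 1 called by DESeq2, Csf1r. For the class II chains the interaction lay between 0.73 (H2-Ab1, 95% confidence interval 0.23 to 1.24, adjusted P value 0.116) and 0.77 (H2-Eb1), and for Cd207 it was 0.32 (-0.27 to 0.92, adjusted P value 0.569). Without mouse 54F, the interaction interval of Ltc4s included 0 (-0.05 to 1.37). Those of Cd74, H2-Aa, H2-Ab1, H2-Eb1, H2-DMa and Csf1r stayed above 0. The comparisons of genotypes and of UV share mice, so they are not independent of each other. H2-Aa, H2-Ab1, H2-Eb1 and H2-DMa lie on chromosome 17 within 5.818 to 6.004 Mb of Ppard, so that the KO allele and strain alleles carried along with it cannot be told apart for them. Cd74, on chromosome 18, had an interaction of 0.76 (adjusted P value 0.121), and Ciita, on chromosome 16, had 0.38 (adjusted P value 0.569).

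Split by sex, a choice made after the values had been seen, the calls were in females. In UV-exposed females, 7 of the 10 genes were higher in KO than in wild-type mice at an adjusted P value under 0.05, where 8.12% of all genes were higher and 9.91% differed either way. At an unadjusted P value under 0.05, 8 of the 10 differed, Epcam being the lower one, where 24.9% of all genes did. In UV-exposed males none was called, where 0.142% of genes were, with estimates between -0.25 (Cd74) and 0.24 (Epcam) and 1 gene, Epcam, at an unadjusted P value under 0.05 (7.10% of all genes). In control males and control females none was called, where 0.0772% and 0.0193% of genes were, with 1 gene in males, Epcam, and none in females at an unadjusted P value under 0.05 (10.1% and 2.07% of all genes). The difference between the sexes in this respect was itself tested as a three-way interaction and was called for none of the 10, nor for any gene tested (0.00%), with 3 of the 10 at an unadjusted P value under 0.05 (4.96% of all genes).

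**Figure D3:**
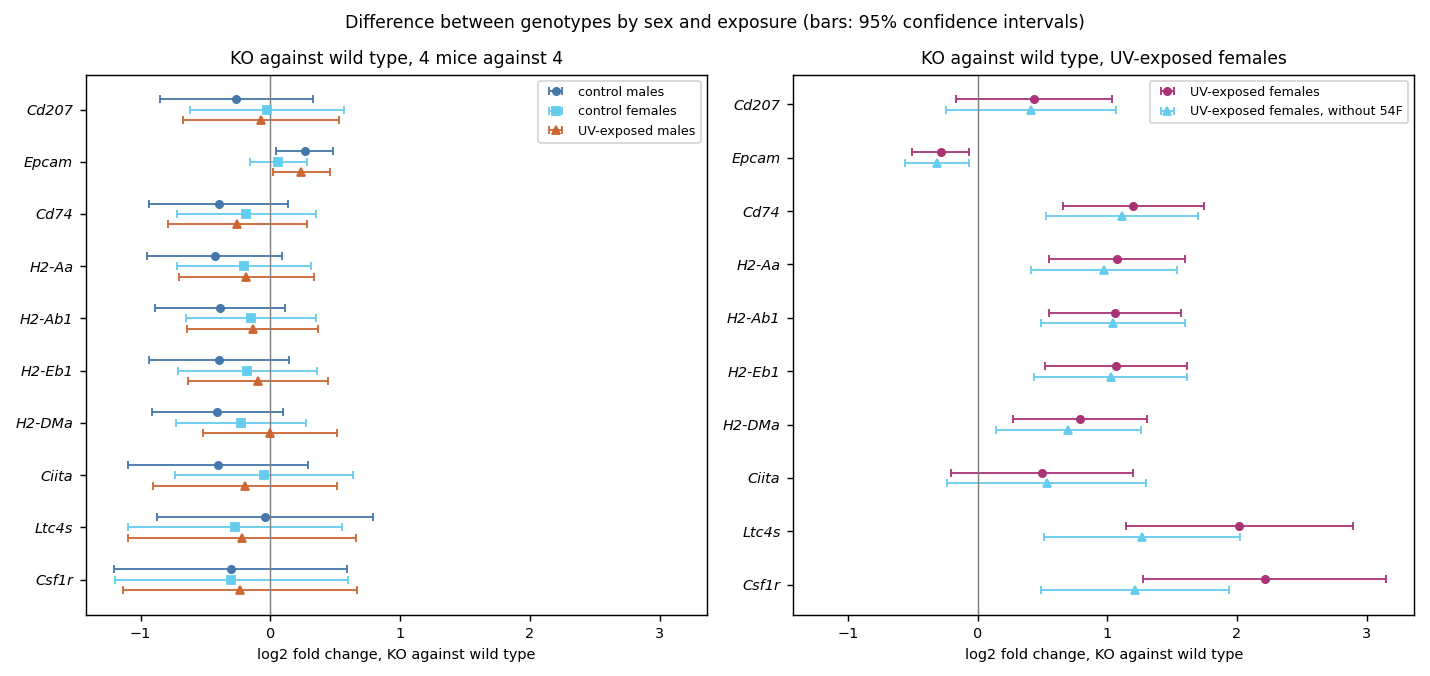
Log2 fold changes of KO against wild-type mice for the 10 genes with 95% confidence intervals, in control males, control females and UV-exposed males (left) and in UV-exposed females with and without mouse 54F (right). The left estimates lie within 0.43 of 0, and the right estimates of Cd74 and the class II chains lie near 1 with and without 54F.

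Cd74 was at 178, 289, 194 and 349 cpm in UV-exposed KO females and at 113, 113, 112 and 101 cpm in UV-exposed wild-type females. The log2 difference was 1.20 (SE 0.27, adjusted P value 0.00548). H2-Ab1 was at 73.8, 99.5, 76.3 and 145 cpm in these KO females against 45.7, 45.2, 51.97 and 46.2 cpm, a log2 difference of 1.06 (SE 0.25, adjusted P value 0.00749). In both genes every KO female was above every wild-type female, as in 8 of the 10 genes, where the groups lay apart in this direction for 7.50% of all genes.

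H2-Aa and H2-Eb1 differed by 1.075 and 1.069 and H2-DMa by 0.79 (adjusted P value 0.044). Ltc4s differed by 2.02 and Csf1r by 2.21, the largest of the 10, and Ciita by 0.50 (adjusted P value 0.385). Cd207 had a log2 difference of 0.43 (95% confidence interval -0.17 to 1.03, adjusted P value 0.377), its groups overlapping at 10.8 to 18.0 cpm in KO and 9.32 to 13.1 cpm in wild-type females. Epcam pointed the other way, at -0.28 (adjusted P value 0.092).

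Without mouse 54F, 2 of the 10 genes were called, where 1.79% of all genes were. These were Cd74, at 1.12 (adjusted P value 0.0414), and H2-Ab1, at 1.04 (adjusted P value 0.0429). The estimates of H2-Aa (0.97) and H2-Eb1 (1.03) moved little, with adjusted P values of 0.0605 and 0.0597, while those of Ltc4s and Csf1r dropped to 1.27 and 1.21 (adjusted P values 0.0655 and 0.0646). Mouse 74F, which had the highest Cd74 and H2-Ab1 of the group, had 1.21 cpm of Col1a1. Its 13.02 cpm of C1qa was close to the highest value of any mouse besides 54F. Summed macrophage and monocyte genes were at 145.7 cpm or more in every exposed KO female, and at most 79.1 cpm in exposed wild-type females.

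Within KO females, UV lowered 5 of the 10 genes and raised 1, where 26.7% of all genes were lower, 34% higher and 60.7% changed either way. Cd207 fell by 1.26, Epcam by 0.89, H2-DMa by 1.11, Ciita by 1.12 and H2-Ab1 by 0.58 (adjusted P value 0.0419) on the log2 scale. Cd74 (-0.21), H2-Aa (-0.37), H2-Eb1 (-0.47) and Ltc4s (-0.14) had adjusted P values between 0.127 and 0.789. Csf1r rose by 1.13 (adjusted P value 0.0281), or by 0.15 with an adjusted P value of 0.736 without 54F, where Ltc4s fell by 0.88 (adjusted P value 0.0419) and H2-Ab1 passed to an adjusted P value of 0.0676. In KO males UV lowered 9 of the 10, where 30.9% of genes were lower and 61.7% changed either way. In wild-type males it lowered 9, where 31.1% were lower and 60.9% changed, and in wild-type females 10, where 31.1% were lower and 61.3% changed. The interaction of genotype and UV in females was called for none of the 10, where 0.251% of genes were, with 8 at an unadjusted P value under 0.05 (15.9% of all genes) and an estimate of 1.385 for Cd74 (adjusted P value 0.0769). Without 54F it was again called for none of the 10, where 0.0990% of genes were, and Cd74 had 1.275 (adjusted P value 0.205).

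To see whether the class II genes fell by more or less than langerin itself, each gene was set against Cd207 in the same mice. In wild-type mice 2 of the 9 other genes fell less than Cd207, where 77.5% of all genes were higher and 82.2% differed relative to it. They were Epcam, by 1.06 on the log2 scale (SE 0.27), and Csf1r, by 0.75 (SE 0.27). The class II chains fell alongside Cd207, with differences between 0.04 (H2-Ab1, 95% confidence interval -0.27 to 0.36) and 0.16 (H2-Aa), and H2-DMa and Ltc4s had -0.32 (adjusted P value 0.0843) and -0.45 (adjusted P value 0.162).

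In KO mice 5 of the 9 were higher relative to Cd207, where 74.3% of all genes were higher and 79.5% differed relative to it. They were Cd74 (0.72, SE 0.17), H2-Aa (0.57), H2-Ab1 (0.41, adjusted P value 0.0169), H2-Eb1 (0.56) and Csf1r (1.49), of which the first 4 fell after UV and Csf1r itself had no called change. The ratio of H2-Ab1 to Cd207 was 4.36 ± 0.609 in exposed and 4.65 ± 1.19 in control wild-type females, 4.60 ± 0.906 in exposed and 4.10 ± 0.931 in control KO males, and 6.60 ± 1.41 in exposed against 4.12 ± 0.129 in control KO females (SD, n = 4). For H2-Ab1 the exposed KO females, at 4.71 to 8.06 against 4.01 to 4.31, were the only group without overlap with its controls. The ratio of Cd74 to Cd207 was above that of the controls without overlap in KO females (11.33 to 19.45 against 7.60 to 8.63) and also in wild-type males (10.7 to 16.3 against 8.10 to 9.36), as was that of H2-Eb1 (4.09 to 6.71 against 2.99 to 3.47, and 3.97 to 5.04 against 3.32 to 3.88). The difference between the genotypes in this measure was called for none of the 9 genes, where 0.00643% of all genes were, and H2-Eb1 had the smallest unadjusted P value (0.0349).

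**Figure D4:**
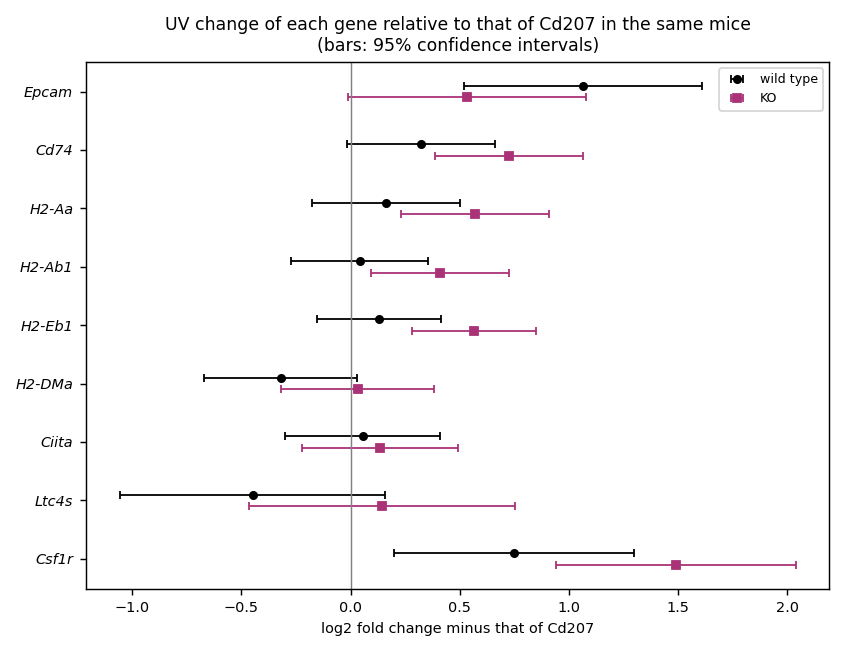
Log2 fold change after UV of each gene minus that of Cd207 in the same mice, with 95% confidence intervals, in wild-type (circles) and KO (squares) mice. The wild-type intervals of the class II chains span 0, while the KO intervals of Cd74, H2-Aa, H2-Ab1, H2-Eb1 and Csf1r lie above it.

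Among mice of the same group, the genes varied together as well. Deviations of log2 cpm from the group means over 32 mice correlated between 0.93 and 0.96 among Cd74, H2-Aa, H2-Ab1 and H2-Eb1, and Cd207 correlated at 0.90 with H2-Eb1 and 0.84 with H2-Ab1 (Pearson's r, a description over libraries that share their depth and their cell mixture). Csf1r was looser, at 0.57 with Cd207 and 0.77 with Cd74. Epcam correlated negatively with every other gene of the set, at -0.43 with Cd207. The control 52M shows this, as it had the lowest Cd207 of all controls, at 10.5 cpm, and the highest Epcam of all mice, at 368 cpm.

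The 10 genes most like H2-Ab1 by this measure among 13084 were H2-Aa, H2-Eb1, Cd74, H2-DMa, Napsa, Hvcn1, H2-DMb1, Cd207, Ehd2 and St3gal2, with r from 0.96 to 0.81. Napsa, an aspartic protease, fell by 1.00 and Hvcn1, a proton channel of leukocytes, by 0.87 after UV in wild-type mice, and their log2 fold changes in KO mice were -0.38 (adjusted P value 0.0926) and -0.06 (adjusted P value 0.835). The 10 most like Cd207 were H2-Eb1, St3gal2, H2-Ab1, Ppp1r9b, Krt14, Ciita, Capg, H2-M2, Dsg3 and Has3, with r from 0.90 to 0.82. They included keratinocyte genes, such as the basal keratin Krt14 (0.83) and the desmosomal cadherin Dsg3 (0.83), the latter of which rose by 2.69 after UV in wild-type mice while Cd207 fell. Likeness within groups and the direction after UV were thus not the same measure.

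Genes of other cells moved in the same mice. Beside them, 36.5% of all genes were lower and 71% changed either way in wild-type mice, and 33.5% and 70.8% in KO mice. Of 8 genes of dendritic epidermal T cells, 7 fell in each genotype (6 in KO mice without 54F). The other, Il2rb, rose by 0.76 and 0.995 on the log2 scale in wild-type and KO mice (adjusted P values 0.00369 and 0.000281). Cd3e, part of the T cell receptor complex, was at 2.88 to 24.2 cpm in wild-type controls and 2.07 to 6.25 cpm after UV. Macrophage and monocyte genes rose, 8 of 10 in wild-type and 10 of 10 in KO mice. Their summed level was 4.09 to 50.8 cpm in wild-type male controls and 37.0 to 129 cpm in exposed wild-type males, 33.99 to 79.1 cpm in exposed wild-type females and 34.8 to 152 cpm in exposed KO males, and 146 to 1585 cpm in exposed KO females, with 54F highest. Mrc1, the mannose receptor, was at 51.7, 377, 43.7 and 34.5 cpm in exposed KO females and at 4.14 to 18.2 cpm in exposed wild-type females. Csf1r and class II genes are also made by macrophages, and the part of these cells in the values of the KO females was not tested.

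Of 6 tested genes of conventional dendritic cells, which also carry class II, 3 fell in wild-type mice, among them Flt3, from 0.511 to 2.32 cpm to 0.141 to 0.412 cpm. The shares of all genes were 36.5% lower and 71% changed either way in wild-type mice, and 33.5% and 70.8% in KO mice. In KO mice 3 fell and 1, Mgl2, rose, and without 54F 3 fell and none rose. Xcr1 and Clec9a did not reach 1 cpm in any mouse. Of 6 dermal fibroblast genes 3 fell after UV in wild-type mice and none was called in KO mice, while without 54F 5 fell in wild-type mice and 3 in KO mice. They summed to 12.6 to 71.9 cpm in wild-type controls, 1.73 to 8.44 cpm in exposed wild-type mice, and 1982 cpm in 54F. Mast cell genes summed to at most 3.13 cpm outside 54F, and of 4 tested none was called in wild-type mice and 1 in KO mice, while without 54F 1 was tested and none was called. Of 7 hair follicle and sebaceous gland genes 4 fell and 2 rose in wild-type mice.

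Of 5 B cell genes, another cell type that carries class II, 2 were tested, of which 1 rose and none fell in wild-type mice and 1 rose and 1 fell in KO mice. The one that rose was Cd79a, a signalling chain of the B cell receptor. It was at 0 to 0.0793 cpm in wild-type controls and at 1.08 to 5.05 cpm after UV, and at 0 to 0.32 cpm and 1.803 to 12.8 cpm in KO mice. Cd79a thus passed the filter of 1 cpm only through exposed mice. A gene this low in controls could be counted only as a rise, so this count says nothing about B cell genes as a set. The B cell genes Cd79b, Ms4a1 and Pax5 stayed under 1 cpm in every mouse. Among 9 keratinocyte genes 6 fell and 2 rose in wild-type mice, with Krt10, a suprabasal keratin, at 28605 to 35751 cpm before and 3993 to 10087 cpm after UV. Over all genes, 71% changed either way in wild-type and 70.8% in KO mice, with 36.5% and 33.5% lower.

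The ligands of CSF1R fell, and whether this bears on the Langerhans cell genes was not tested. Il34, made by keratinocytes, was at 51.8 to 70.2 cpm in the 8 wild-type controls and 6.62 to 11.6 cpm in the 8 exposed mice, and at 45.2 to 63.1 cpm and 7.47 to 12.7 cpm in KO mice. The groups lay far apart in both genotypes, with log2 fold changes of -2.73 (SE 0.12) and -2.45 (SE 0.12). Csf1, the other ligand of CSF1R, fell by 1.95 in wild-type mice and by 1.26 in KO mice (1.73 without 54F), where 54F had 61.7 cpm and the other exposed mice 4.64 to 19.5 cpm. Tgfb1, a cytokine that Langerhans cells need, rose by 1.00 and 1.73, and Itgb6, a chain of an integrin that activates it, rose by 1.31 and 1.28. Over all 13 genes of this list, 6 fell and 6 rose in wild-type mice, and 5 fell and 7 rose in KO mice, beside the 71% and 70.8% of all genes that changed.

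**Figure D5:**
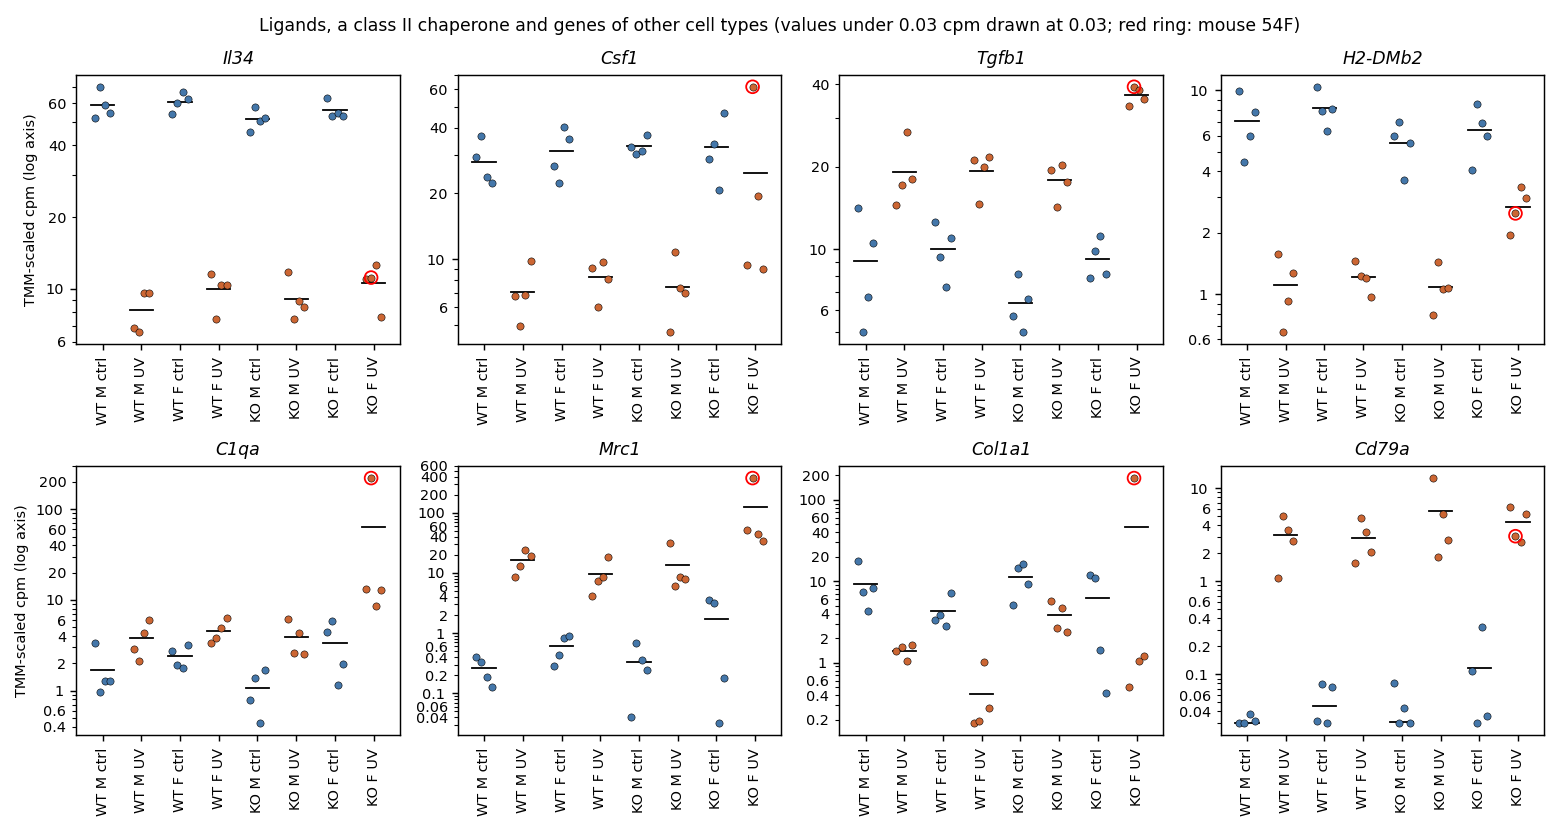
TMM-scaled cpm on a log axis in 32 mice for the ligands Il34, Csf1 and Tgfb1, the class II chaperone H2-DMb2, the macrophage genes C1qa and Mrc1, the fibroblast gene Col1a1 and the B cell gene Cd79a. Points are mice, lines are means of 4 and the red ring is mouse 54F, which has the highest C1qa (220 cpm) and Col1a1 (185 cpm), and values under 0.03 cpm are drawn at 0.03.

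Genes of dendritic cell maturation and migration rose in 12 and fell in 1 of 16 cases in wild-type mice, and in 15 and 1 in KO mice. Over all genes, 71% changed either way and 36.5% were lower in wild-type mice, and 70.8% and 33.5% in KO mice. Cd80, a costimulatory ligand of T cells, was at 0.0368 to 0.952 cpm in wild-type controls and 7.66 to 11.2 cpm after UV, and Il1b rose by 3.36. With wild-type controls under 1 cpm, Cd80 could hardly have been counted as a fall there, since the filter needs 1 cpm in some mouse. Which cells of the bulk epidermis carried these rises was not tested. Ccr7, the receptor that guides these cells to the lymph node, had a log2 fold change of 0.02 in wild-type mice (adjusted P value 0.958) and rose by 1.27 in KO mice. Ccl22, a chemokine of mature dendritic cells, fell by 1.08 and 0.54. Of 18 further genes of Langerhans cells and leukocytes, 10 fell and 3 rose in wild-type mice. Those that fell included Ly75 (-1.64), Sirpa (-1.18), Cx3cr1 (-1.34) and Cd52 (-1.67). Among those that rose was Cd24a, by 1.75 in wild-type and 1.65 in KO mice. In KO mice 4 fell and 6 rose, with the macrophage gene Mpeg1 rising by 1.56 and 2.30 in wild-type and KO mice.

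Between the sexes, none of the 10 genes was called without UV, where 6.86% of all genes were, with 2 at an unadjusted P value under 0.05 (25.1% of all genes), and the sex-by-UV interaction was called for none of the 10 and for no gene (0.00%), with none of the 10 at an unadjusted P value under 0.05 (7.02% of all genes). After UV, 2 of the 10 were higher in females over both genotypes, where 1.88% of all genes were higher and 3.03% differed either way, and 9 had an unadjusted P value under 0.05, where 20.4% of all genes did. The 2 called genes were H2-Ab1, by 0.63 (adjusted P value 0.0441), and Ltc4s, by 1.13 (adjusted P value 0.0381), and neither was called without mouse 54F. Without that mouse, the confidence intervals of H2-DMa (-0.06 to 0.71) and Csf1r (-0.08 to 0.91) also came to include 0.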

How the data were processed

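Epidermal RNA of 32 mice was sequenced (TruSeq Stranded mRNA, single reads). The authors trimmed reads with cutadapt 1.8, aligned them with STAR 2.5.3a and deposited whole read counts per Ensembl gene from HTSeq 0.9.1, without normalization. The submitters' notes give GRCm38. Whether counting used strand is not given in the sources used here. Symbols and positions came from GENCODE M21, which holds 55141 of 55401 identifiers. Reads without a gene (6.8 to 9.75% per mouse) were left out.

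Genes that reached 1 cpm in 1 or more mice (15546) were scaled by TMM and fitted with 8 group means over all 32 mice in edgeR 4.0.16 (quasi-likelihood, R 4.3.3). P values were adjusted by Benjamini-Hochberg over all genes at a threshold of 0.05. Changes relative to Cd207 were fitted in limma 3.58.1 on log2 cpm (prior count 1) minus that of Cd207. Alternatives were RLE scaling, other filters, limma-trend, DESeq2 1.42.0, a fit of one genotype, a prior count of 0.25 and leaving out each mouse. Within groups, all 48 pairs of mice differed beyond sampling noise. The calls were tested on simulated data. The 10 genes, the lists and the tests were chosen with earlier results of these data known, and splits of the genotype comparison by sex after values were seen. The named genes were all 10 members, up to 2 rises and 2 falls per list called in both genotypes with a mean of at least 10 counts, 10 genes most like Cd207 and H2-Ab1 with a mean of at least 1 cpm, and markers of other cells; others were named after their values were seen.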

Additional observations from a re-analysis of the deposited data

Results flagged for a closer look

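In groups of 4, a mouse was marked when the share of the group's range between it and its nearest group mate passed Dixon's critical value. Chance marks about 1 in 20 groups, and 10 of 80 gene-by-group sets were marked. Among KO females after UV, mouse 54F had 219.5 cpm of Csf1r, with 54.4 cpm the next. Among wild-type female controls, mouse 71F was low, with 190.8 cpm of Cd74 and 100.7 cpm of H2-Ab1. Among exposed wild-type females, 77F had 101.4 cpm of Cd74 and 4.04 cpm of H2-DMa, the lowest of the group, and 59F had 51.97 cpm of H2-Ab1, the highest. Among KO male controls, 52M had the highest Epcam (368.1 cpm) and the lowest H2-DMa (10.07 cpm). Among exposed KO males, 58M had the highest Epcam (250.6 cpm) and H2-Aa (52.78 cpm).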

How the results depend on the processing

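The 10 genes fell in wild-type mice and 9 of them in KO mice under every alternative run, including the removal of each mouse. DESeq2 called 1 gene, Csf1r, in the genotype comparison after UV and 1, Csf1r, in the genotype-by-UV interaction. In edgeR, leaving out 54F lowered these Csf1r estimates from 0.99 to 0.48 and from 1.29 to 0.78. The count for the sex difference after UV was 0 without a filter on low counts, 1 with filterByExpr, 1 with limma-trend and 4 with DESeq2. Leaving out 1 mouse gave 0 to 2 genes for the genotypes after UV (1 without 52F or 59M, 2 without 66F), 2 to 8 for the genotypes in UV-exposed females (2 without 54F), 0 to 1 for the sexes without UV (1 without 43M or the female 71F) and 0 to 3 for the sexes after UV (0 without 32M, 38M, 51F, 54F, 59F, 59M, 61M, 71M or 77F, so that no call there held against the loss of 1 mouse). Values that changed sign were those of Csf1r under UV in KO mice, from -0.14 to 0.46, negative without 54F, of Epcam between genotypes after UV, from -0.11 to 0.0042, positive without the wild-type female 57F, and of Ltc4s under UV in KO females, from -0.88 to 0.14, positive without 52F (0.042), 60F (0.14) or 66F (0.089). The H2-DMa difference in UV-exposed females lost its call under RLE scaling, no filter, filterByExpr and limma-trend, and without any one of 16 mice, that of H2-Eb1 without 54F or 74F and those of H2-Aa, Ltc4s and Csf1r without 54F. The fall of H2-Ab1 in KO females lost its call without any one of 6 mice (52F, 54F, 59F, 60F, 62F or 66F), and the rise of Csf1r there with no filter, with limma-trend and without 44F, 54F or 69F. The cause was not tested. With 4 mice a group, differences within the stated intervals were not separable. No paired analysis was possible because each mouse has its own number in 1 group only.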
